A study of Homo sapiens with 4 samples.

Results

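The genes that write, copy and erase DNA methylation were followed in NK-92, a human natural killer cell line that depends on interleukin 2 (IL-2), together with 1 further protein substrate of the sugar transferase OGT. The group holds 8 genes chosen by name among 61860 in the count table: the DNA methyltransferases DNMT1, DNMT3A and DNMT3B, the TET dioxygenases TET1, TET2 and TET3, the methylation reader UHRF1 and the OGT substrate HCFC1. Wild-type NK-92 (WT) was compared with an edited line labelled dOGT-ISS, in which CRISPR-Cas9 had removed the intronic splicing silencer (ISS) of OGT with the aim of sustaining OGT expression and raising O-GlcNAc. All cells grew in medium with recombinant human IL-2, and each line gave 2 libraries, whose labels put IL-2 treatment at 48 h before RNA extraction in one and at 24 h in the other. IL-2 appears in the titles of the 24 h pair alone, and the treatment labels were followed. There was 1 edited line, and the labels do not say whether it is a clone or whether the libraries came from separate cultures. Each line had 1 library at each time, so there was no replicate. The spread behind each p-value rests on how far the line difference changed with IL-2 time, with information shared over genes, and may be technical. It does not measure the spread between repeated cultures. The edit cannot be told apart from other differences between the lines.

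DNA methylation in mammals sits mainly on cytosines followed by guanine (CpG). DNMT3A and DNMT3B place new marks, DNMT1 copies them after DNA replication, and UHRF1 brings DNMT1 to hemimethylated sites. The TET enzymes oxidise the mark, which opens the way to its removal. OGT attaches the sugar O-GlcNAc to proteins inside the cell, binds TET proteins, and both modifies and cleaves HCFC1, a scaffold that joins transcription factors to histone-modifying complexes.

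Counts per library ran from 10889986 to 28576566, with both 48 h libraries below both 24 h libraries. All 10 natural killer markers examined had counts in each of the 4 libraries, and their summed level lay between 2228 and 4008 CPM (read counts scaled to a common library total, with TMM factors). Between the lines 8 of the 10 were on the lower side in dOGT-ISS, and CD2 (log2 -2.15, edgeR adjusted p = 0.0142) and TYROBP (-2.74, adjusted p = 0.0242) passed the test. The summed level of 9 T cell markers was 216 to 361 CPM, of 5 B cell markers 53.9 to 81.5 CPM, and of 3 erythroid markers at most 0.189 CPM. CD3E made up most of the T cell sum and PAX5 most of the B cell sum, while TRAC had 19.9 to 24.0 CPM, CD6 2.74 to 19.2 CPM, and each of the other markers of these 2 types at most 1.79 CPM in any library. None of the T cell, B cell or myeloid markers passed the test between the lines. Of the 7 myeloid markers, the summed level was 611 CPM in dOGT-ISS and 827 CPM in WT at 48 h, and 47.7 and 316 CPM at 24 h. S100A9 made up most of it, S100A8 had 0.759 to 29.4 CPM, CSF1R 3.52 to 9.46 and ITGAM 4.04 to 8.61, and CD14, LYZ and CD68 stayed at or below 0.284 CPM. The part of such genes in the results was not tested. OGT itself stood in dOGT-ISS at 0.893 of its WT level at 48 h (95% counting interval 0.857 to 0.930) and 0.855 at 24 h (0.833 to 0.878). A gene count adds up transcripts with and without the retained intron, and so says nothing on whether the silencer is gone.

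Promoter sequences are shown for the copying pair DNMT1 and UHRF1 and for DNMT3B, the gene that differed between the lines, to set their CG content and E2F-type letters side by side. They are RefSeq windows of 300 bases on GRCh38.p14, 250 before and 50 after the start, printed 5′ to 3′ on the gene's strand. Capitals mark a match to any of 4 E2F-type words searched on both strands, TTTCCCGC, TTTCGCGC, TTTGCCGC and TTTGGCGC, which belong to the recognition sequence of the E2F family of cell cycle factors.
DNMT1 promoter, chr19:10194904-10195203, minus strand: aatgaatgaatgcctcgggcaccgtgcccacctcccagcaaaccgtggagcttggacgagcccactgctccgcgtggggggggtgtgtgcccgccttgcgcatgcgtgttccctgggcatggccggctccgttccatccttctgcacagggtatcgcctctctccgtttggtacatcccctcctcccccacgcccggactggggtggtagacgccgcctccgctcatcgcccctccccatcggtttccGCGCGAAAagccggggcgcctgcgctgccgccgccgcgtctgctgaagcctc
UHRF1 promoter, chr19:4909251-4909550, plus strand: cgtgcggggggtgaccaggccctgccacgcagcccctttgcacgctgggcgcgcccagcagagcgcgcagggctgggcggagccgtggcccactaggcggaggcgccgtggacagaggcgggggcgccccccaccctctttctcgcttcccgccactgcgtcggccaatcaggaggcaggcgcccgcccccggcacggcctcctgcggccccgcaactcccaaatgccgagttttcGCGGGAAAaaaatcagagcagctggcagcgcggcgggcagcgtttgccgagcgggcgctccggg
DNMT3B promoter, chr20:32779602-32779901, plus strand: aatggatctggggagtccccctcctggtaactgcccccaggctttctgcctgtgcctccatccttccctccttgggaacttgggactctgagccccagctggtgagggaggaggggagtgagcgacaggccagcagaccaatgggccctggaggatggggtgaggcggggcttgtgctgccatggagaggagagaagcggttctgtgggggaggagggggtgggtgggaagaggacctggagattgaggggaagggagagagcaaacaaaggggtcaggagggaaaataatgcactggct

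The DNMT1 window held 30 CG pairs and the UHRF1 window 36, against a median of 14 over 35116 RefSeq promoters. The DNMT1 match reads TTTCGCGC on the opposite strand and starts at base 249 of the window, counted from its 5′ end. The UHRF1 match reads TTTCCCGC on the opposite strand and starts at base 237. Another UHRF1 window, from 4909894, held TTTCGCGC at base 91, and that from 4910117 held no match. Of all promoters 3.31% held any of the 4 words, a share not matched for CG content. The DNMT3B window, which lies inside the gene, held 3 CG pairs, and 18.2% of promoters held fewer. None of the words lay in this DNMT3B window, which says only that these letters are absent from it. The GENCODE span of DNMT3B begins upstream, at 32762385, and the sequence at that start was not examined. All 3 windows lie within the GENCODE span of their gene, so starts further upstream are annotated too. RefSeq windows were found for 7 of the 8 genes, and the choice among several starts of 1 gene was made for display.

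Levels between genes were compared per transcript length, in the authors' values scaled to transcript length and library total (FPKM). DNMT1 ranked first of the 8 in each library, at 107 FPKM in dOGT-ISS and 81.4 in WT at 48 h, and at 132 and 123 at 24 h. The highest value of any other gene was 57.0 FPKM, so DNMT1 did not overlap with the rest. UHRF1 ranked second at 48 h, with 22.2 FPKM in dOGT-ISS and 28.3 in WT, and HCFC1 came next, with 20.5 and 21.4. At 24 h HCFC1 was second, with 57.0 and 53.5 FPKM. UHRF1 then had 37.6 and 38.7 FPKM and lay below DNMT3B in dOGT-ISS and above it in WT. Neighbours in the middle of the order therefore changed places between libraries.

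DNMT3B had 13.4 FPKM in dOGT-ISS and 2.99 in WT at 48 h, and 40.0 and 15.1 at 24 h. DNMT3A, the other enzyme for new marks, was far lower, with 0.122 and 0.380 FPKM at 48 h and 1.45 and 1.66 at 24 h. The FPKM ratio of DNMT3B to DNMT3A was 110 in dOGT-ISS and 7.86 in WT at 48 h, and 27.5 and 9.13 at 24 h. The 48 h ratios rest on 13 DNMT3A reads in dOGT-ISS and 39 in WT, so their size is uncertain. DNMT3B made up 11.1% and 3.53% of the summed FPKM of the 3 methyltransferases at 48 h, and 23.1% and 10.8% at 24 h. Most of the remainder was DNMT1, which made up 76.1% to 96.0%.

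TET3 carried most of the TET signal, from 93.9% to 99.2% of the summed FPKM of the 3 genes. Its level was 4.71 FPKM in dOGT-ISS and 6.65 in WT at 48 h, and 9.44 and 9.05 at 24 h. TET2 lay between 0.0767 and 0.383 FPKM. TET1 ranked last in each library with 1 to 6 reads, and was too low to be tested. A processed pseudogene within TET1, COX20P1, had 26 to 57 reads in the same libraries. The strand setting of the counting is not given in the sources used here, so reads of overlapping genes may be shared. For the other genes the overlapping annotation was small, for instance 9 to 43 reads in S1PR2 within DNMT1 and 5 to 50 in HCFC1-AS1 beside HCFC1.

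**Figure D1:**
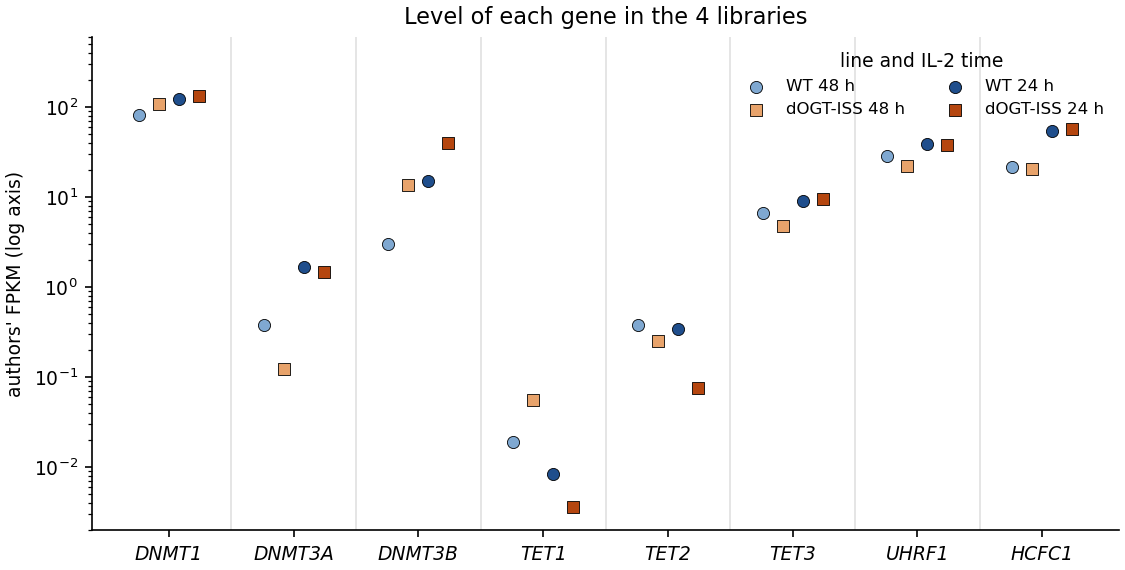
Authors' FPKM (log axis) of the 8 genes in each of the 4 libraries, 1 point per library. DNMT1 lies above the other genes in each library, between 81.4 and 132 FPKM, and TET1 lies lowest.

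The first comparison asked which of these genes differed between the edited and the WT line, with IL-2 time as a second term. DNMT3B was higher in dOGT-ISS, 3.27-fold over both times, and was the only one of the 7 tested genes to pass the test. Across all genes 81 of 17492 passed, which is 0.463%, and 0.149% passed as higher. The median log2 difference of the 7 genes was -0.24, beside 0.02 over all genes tested. None of the other 6 passed, and DNMT1, UHRF1 and HCFC1 had fitted differences of 0.21, -0.24 and -0.03. The natural killer markers CD2 and TYROBP passed in the same comparison, as lower, and their part in the DNMT3B result was not tested. In bulk RNA, fewer cells of a type and less RNA per cell cannot be told apart.

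DNMT3B (ENSG00000088305, GRCh38 chromosome 20, 32762385 to 32809356, plus strand) had 658 reads in dOGT-ISS and 141 in WT at 48 h, and 4952 and 1627 at 24 h. In normalized units these were 57.7 and 13.3 CPM, then 171 and 66.1 CPM. The dOGT-ISS library was the higher of the pair at each time, although the 48 h dOGT-ISS value lay below the 24 h WT value. This is a ratio of 4.32 for the 48 h pair (95% counting interval 3.60 to 5.22) and 2.58 for the 24 h pair (2.44 to 2.74). The fitted log2 difference was 1.71 (SE 0.21, edgeR quasi-likelihood adjusted p = 0.0242). The call did not hold when the time term was dropped (log2 1.52 with all 4 libraries, 0.46 to 3.14 with 1 library also left out), nor with limma on FPKM (adjusted p = 0.211 and 0.232 at pseudocounts of 1 and 0.1).

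The genes on both sides of DNMT3B were also higher in dOGT-ISS. Over its 20 nearest tested protein-coding genes, which span 31870702 to 33792269 on chromosome 20, the log2 ratio had a median of 0.82 at 48 h. The 24 h median was 0.78, and the medians over all genes were 0.01 and 0.00. Of these neighbours 18 lay above 0 at 48 h and 19 at 24 h. DNMT3B exceeded the neighbour median by 1.28 log2 units at 48 h, which is 2.43-fold, and by 0.58 at 24 h, which is 1.50-fold. At 48 h 1 neighbour, EFCAB8, was higher still with a log2 ratio of 2.77, and at 24 h none reached DNMT3B. With each gene's neighbour median removed, DNMT3B had a log2 difference of 0.91 (SE 0.20, edgeR adjusted p = 0.236) and no longer passed. No other tested gene of the 8 lay among neighbours of this kind, since their neighbour medians lay between -0.21 and 0.22.

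**Figure D2:**
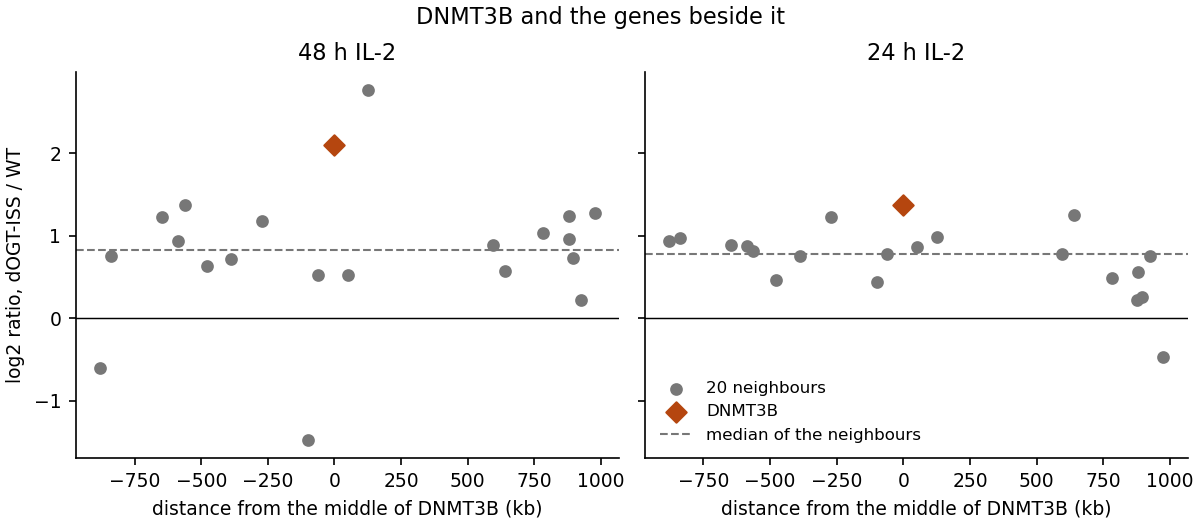
Log2 ratio of dOGT-ISS to WT for DNMT3B and its 20 nearest tested protein-coding genes, against distance from DNMT3B, at 48 h and 24 h (1 library per line at each time, no error). Most neighbours lie above 0, with medians of 0.82 and 0.78, and DNMT3B lies above all of them at 24 h.

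The other methyltransferase for new marks, DNMT3A (chromosome 2, 25227855 to 25342590), had 13 reads in dOGT-ISS and 39 in WT at 48 h, and 391 and 387 at 24 h. It was lower in dOGT-ISS both times, 0.309 of WT (0.151 to 0.591) and then 0.858 of WT (0.744 to 0.990). The fitted difference of -0.76 (SE 0.40, edgeR adjusted p = 0.673) did not pass. DNMT1 (chromosome 19, 10133345 to 10231286) had 561 and 442 CPM at 48 h and 685 and 653 CPM at 24 h. Its ratio was 1.27 at 48 h and 1.05 at 24 h, with a fitted difference of 0.21 (SE 0.17, edgeR adjusted p = 0.864). Its partner UHRF1 (chromosome 19, 4903080 to 4962154) went the other way, with ratios of 0.754 (0.692 to 0.821) and 0.950 (0.908 to 0.993) and a fitted difference of -0.24 (SE 0.16, edgeR adjusted p = 0.816).

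TET2 (chromosome 4, 105145875 to 105279816) had 27 reads in dOGT-ISS and 40 in WT at 48 h, and 21 and 81 at 24 h. It was the lower in dOGT-ISS at both times, with ratios of 0.625 (0.369 to 1.04) and 0.220 (0.129 to 0.359). The fitted difference was -1.43 (SE 0.60), with an edgeR unadjusted p of 0.0448 and an adjusted p of 0.531. It and DNMT3B were the 2 of 7 past an unadjusted p of 0.05, as were 9.08% of all genes. TET3 (chromosome 2, 73986404 to 74108176) had 56.3 and 82.6 CPM at 48 h and 112 and 110 CPM at 24 h. Its 2 times were unlike, with a ratio of 0.681 (0.614 to 0.755) and then 1.02 (0.969 to 1.07). The fitted difference was -0.26 (SE 0.19, edgeR adjusted p = 0.835).

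HCFC1 (chromosome X, 153947553 to 153971807), the OGT substrate, had 180 CPM in dOGT-ISS and 195 in WT at 48 h, and 499 and 478 CPM at 24 h. Its ratio was 0.920 (0.865 to 0.978) and then 1.04 (1.02 to 1.07), on opposite sides of 1. The fitted difference was -0.03 (SE 0.16, edgeR adjusted p = 0.986). OGA, which removes O-GlcNAc, had ratios of 0.840 and 0.869 and did not pass (log2 -0.23, edgeR adjusted p = 0.804), and neither did OGT (-0.19, adjusted p = 0.862).

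**Figure D3:**
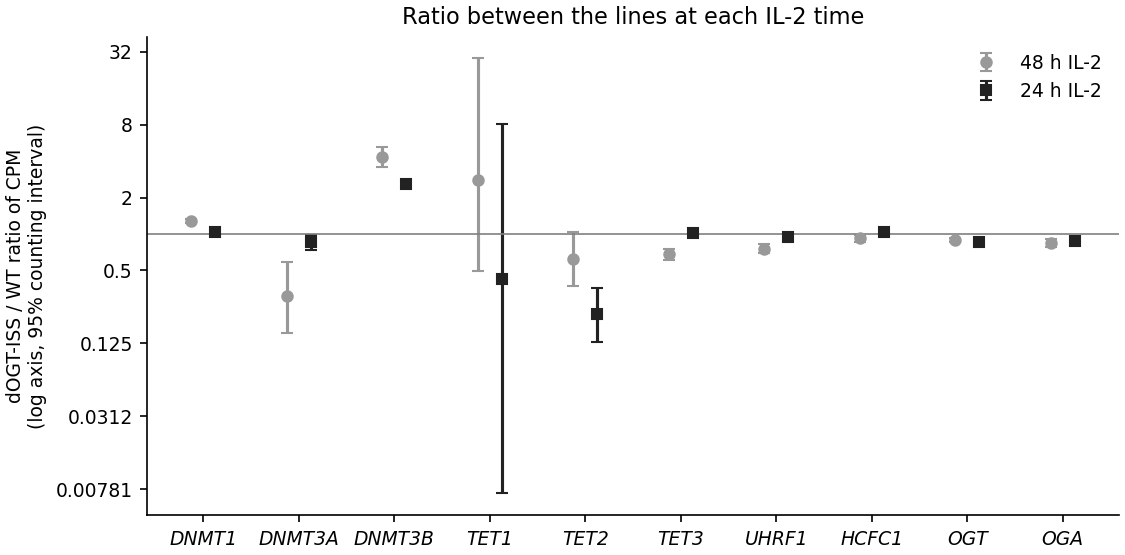
Ratio of dOGT-ISS to WT for the 8 genes, OGT and OGA at 48 h and 24 h (log axis), with 95% counting intervals. DNMT3B lies at 4.32 and 2.58, while HCFC1 lies at 0.920 and 1.04. The widest intervals belong to TET1, which had 1 to 6 reads.

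The second comparison asked how the genes differed between IL-2 given 24 h and 48 h before extraction, with line as the other term. Differences are given as 24 h minus 48 h, and so do not follow cells forward in time. DNMT3A, DNMT3B, HCFC1, TET3 and UHRF1 were higher at 24 h, 5 of the 7 tested, and none was lower. Over all genes 25.9% passed, 15.0% as higher and 10.9% as lower (38.8% in all at an unadjusted p under 0.05). The median log2 difference of the 7 was 0.70, beside 0.07 over all genes tested. The 24 h libraries also held more than 2 times the counts of the 48 h libraries. With those libraries thinned at random to the smaller 48 h total, DNMT3A (2.66), DNMT3B (1.86), HCFC1 (1.33) and TET3 (0.67) stayed called. UHRF1 did not (0.51, edgeR adjusted p = 0.0518). Transcripts rich in guanine and cytosine (GC) were higher in the 24 h libraries. When genes were sorted into 5 classes of like size by GC content, the median log2 difference went from -0.39 in the lowest class to 0.98 in the highest, and the share called higher from 1.31% to 45.1%. UHRF1 and HCFC1 belong to the highest class, and DNMT1, DNMT3A, DNMT3B and TET3 to the one below it, where the median was 0.42 and 20.8% were called higher.

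DNMT3A had 1.14 CPM in dOGT-ISS and 3.69 in WT at 48 h, against 13.5 and 15.7 CPM at 24 h. Both 24 h values lay above both 48 h values, as they did for DNMT1, DNMT3B, TET3, UHRF1 and HCFC1. The share of all genes with such a split was not counted, so the split says nothing particular to these genes. DNMT3A was higher at 24 h, 6.65-fold by the fit (log2 2.73, SE 0.42, edgeR adjusted p = 0.00341), 4.26-fold in WT and 11.8-fold in dOGT-ISS, the latter resting on the 13 reads at 48 h. DNMT3B, whose 4 values stand above, was 3.77-fold higher at 24 h (log2 1.92, SE 0.21, edgeR adjusted p = 0.00113). It lost the call when the line term was dropped with all 4 libraries kept (1.74, adjusted p = 0.156). Without that term and also without WT at 48 h, WT at 24 h or dOGT-ISS at 24 h, the adjusted p was 0.190, 0.0546 and 0.434. Its time ratio was 4.95 (4.17 to 5.93) in WT and 2.96 (2.73 to 3.22) in dOGT-ISS. Offsets for GC content and length left both genes called but with smaller differences. DNMT3A stood at 2.33 (SE 0.38, edgeR adjusted p = 1.89e-07) and DNMT3B at 1.58 (SE 0.23, adjusted p = 5.75e-09). The adjusted p fell although the differences shrank, so p-values are not to be compared between the fits with and without offsets.

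HCFC1 had 180 and 195 CPM at 48 h, and 499 and 478 CPM at 24 h. The fitted difference was 1.38 (log2, SE 0.16, edgeR adjusted p = 0.00131), and the ratio was 2.45 in WT and 2.77 in dOGT-ISS. HCFC1 passed under all 12 alternatives run, although with GC and length offsets the difference was 0.74 (adjusted p = 0.0219). TET3 was 1.63-fold higher at 24 h, a log2 difference of 0.70 (SE 0.19, edgeR adjusted p = 0.0293). It lost its call with those offsets (0.55, adjusted p = 0.0808). UHRF1 had 85.7 and 114 CPM at 48 h and 144 and 152 at 24 h. It was 1.50-fold higher at 24 h (log2 0.58, SE 0.17, edgeR adjusted p = 0.0355), but its difference was -0.01 with the offsets (adjusted p = 0.981). The call was also lost with upper-quartile factors in place of TMM (0.50, edgeR adjusted p = 0.0530). With the offsets 3 of the 7 were called higher, DNMT3A, DNMT3B and HCFC1, beside 9.28% of all genes (8.99% lower). DNMT1, the most abundant of the set, differed by 0.42 (SE 0.17, edgeR adjusted p = 0.100) and did not pass. TET2 had a difference of -0.90 (SE 0.59, edgeR adjusted p = 0.303), with time ratios of 0.869 in WT and 0.306 in dOGT-ISS.

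**Figure D4:**
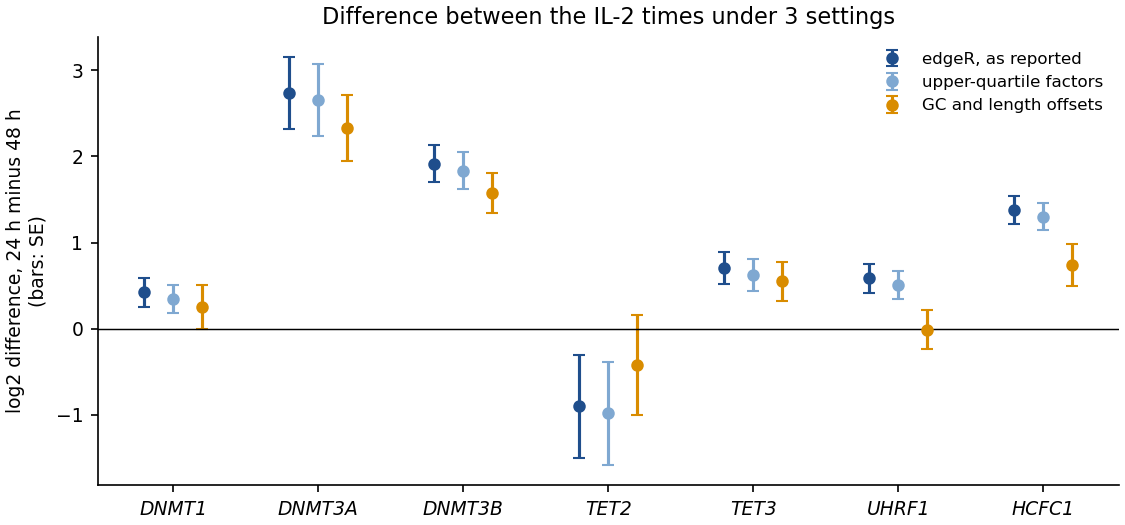
Log2 difference between 24 h and 48 h for the 7 tested genes, with standard errors. The settings are edgeR as reported, upper-quartile factors in place of TMM, and offsets for GC content and length. With the offsets DNMT3A and DNMT3B stay highest, at 2.33 and 1.58, while UHRF1 moves from 0.58 as reported to -0.01.

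Genes that work with these enzymes were taken from 9 lists. Between the lines none of their members passed the test. Their medians lay between -0.42 and 0.13. Among readers of methylated CpG the largest difference was in ZBTB38, a zinc finger protein, at 1.24 (SE 0.22, edgeR adjusted p = 0.0754). IDH2, a mitochondrial enzyme that makes the cofactor the TET enzymes need, had a difference of -1.06 (adjusted p = 0.0766), and CXXC5, a CpG-binding protein, one of 0.99 (adjusted p = 0.393). AHCY, which clears the product of methyl transfer, stood at 0.88 (adjusted p = 0.0796), and ASXL1, a subunit of a histone deubiquitinase that HCFC1 and OGT join, at 0.73 (adjusted p = 0.114). Smaller differences were those of UHRF2 (0.40), CDCA7L (0.41), PCNA (0.37), MTAP (0.46), PGM3 (0.34), E2F1 (0.49), E2F3 (-0.36) and the cyclin gene CCNE1 (-0.60), with edgeR adjusted p between 0.398 and 0.872.

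Some of these genes lie near DNMT3B or in another stretch where neighbours differ, a point chosen after the values were seen. AHCY, ASXL1 and E2F1 are on chromosome 20, with neighbour medians of 0.87, 0.82 and 0.86, and with the neighbour median removed their line differences were 0.00, -0.08 and -0.37. IDH2, NEIL1 and SIN3A are on chromosome 15, with neighbour medians of -0.63, -0.62 and -0.64, and differences of -0.43, -0.21 and 0.12 after removal. UHRF2 and MTAP are on chromosome 9, with neighbour medians of 0.84 and 0.79 at 48 h and 0.16 and 0.21 at 24 h. Their differences were -0.10 and -0.03 after removal. CDCA7L, on chromosome 7, went the other way, with a neighbour median of -0.49 and a difference of 0.89 after removal. Over the 118 tested genes of the lists outside the 8, line difference and neighbour median had a Pearson r of 0.43 and a Spearman rho of 0.31, a description across genes that are not independent. Without chromosomes 15 and 20, r was 0.15 over 111 genes.

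**Figure D5:**
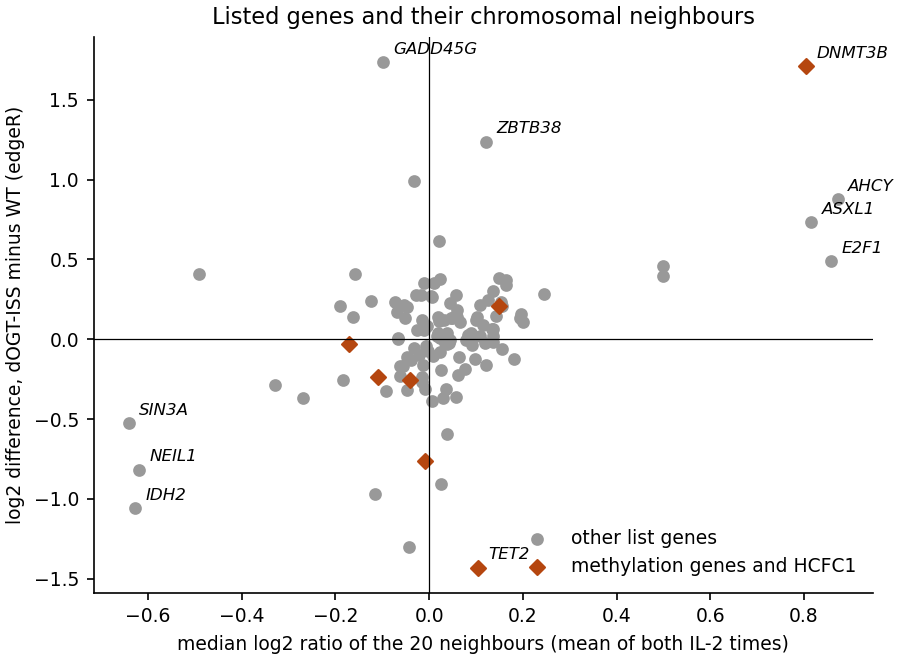
Line log2 difference of the 118 tested list genes and of the 7 tested methylation genes and HCFC1 against the median log2 ratio of each gene's 20 neighbours, 1 point per gene. AHCY, ASXL1 and E2F1 lie with DNMT3B at neighbour medians above 0.8, and IDH2, NEIL1 and SIN3A near -0.6.

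Between the times, 2 of 9 genes in the list of methylated CpG readers and their relatives were higher and 2 lower at 24 h. This and the counts that follow are to be read beside 15.0% of all genes called higher and 10.9% called lower, and nothing particular to a list follows from them. MBD3 was higher at 24 h by 2.44 log2 units, while MBD4, a repair glycosylase, was lower by 1.46 and MBD2 by 1.03. These 3 kept their direction with GC and length offsets. Of 11 maintenance partners, 4 were higher and 2 lower, with EHMT2, a histone methyltransferase, at 1.12, the corepressor TRIM28 at 1.07, the DNA ligase LIG1 at 0.91 and SUV39H1 at 0.64. None passed with the offsets. Of 16 genes of oxidised cytosine repair and TET partners, 4 were higher, CXXC5 by 2.45, NEIL1 by 1.43, IDH2 by 0.88 and NTHL1 by 0.68. With the offsets CXXC5 was still called (1.51), while NEIL1 (0.38), IDH2 (0.30) and NTHL1 (-0.36) were not. Of 13 genes that supply methyl groups, 3 were higher and 2 lower, among them MAT2A at 0.61, MAT2B at -0.74 and SHMT2 at -0.61. With the offsets MAT2A (0.86) and SHMT2 (-1.23) were called and MAT2B (-0.39) was not.

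The complexes around HCFC1 and OGT had 10 higher and 1 lower among 30 tested. The 10 include TET3. MBD6 was higher at 24 h by 1.86, SETD1B, a histone methyltransferase, by 1.28 and FOXK2 by 0.97 log2 units. SAP30, a deacetylase subunit, was lower by 0.99. With GC and length offsets MBD6 (1.08) and SAP30 (-1.30) were still called, while SETD1B (0.27, adjusted p = 0.462) and FOXK2 (0.49, adjusted p = 0.119) were not. In all 5 of the 30 were then higher and 1 lower, where 9.28% of all genes were called higher. Of 12 transcription factors that bind HCFC1, SP1 was higher by 0.82, E2F1 by 0.65 and E2F4 by 0.56. With the offsets SP1 was still called (0.90), while E2F1 and E2F4 stood at -0.37 and -0.16. Of 21 S-phase genes 5 were higher and 2 lower at 24 h, beside 15.0% and 10.9% of all genes, with TYMS, which makes thymidylate, at 1.19, the licensing factor CDT1 at 0.88 and the helicase subunits MCM5 at 0.67 and MCM6 at -0.66. With the offsets 2 were called higher and 2 lower, beside 9.28% and 8.99%. TYMS stayed called (1.05), while CDT1 stood at -0.49, MCM5 at 0.11 and MCM6 at -0.34, none of them called. None of 7 tested genes of O-GlcNAc cycling and hexosamine supply passed, the largest differences being 0.78 in NAGK and -0.47 in UAP1, and OGT differed by -0.02.

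By closeness of pattern over the 4 libraries, measured as the Euclidean distance between centred log2 CPM among 9082 protein-coding genes, LRRC20 (distance 0.47) and GGT7 (0.49) were nearest to DNMT3B. LRRC20 had 5.52 CPM in dOGT-ISS and 1.32 in WT at 48 h, and 12.9 and 7.68 CPM at 24 h. MAPK11 (distance 0.21) and AJM1 (0.44) were nearest to DNMT3A, and TAF6L and PCSK7 (both 0.05) to HCFC1. Nearest to TET2, among 9083 genes, were IL2RA (distance 0.35), the alpha chain of the IL-2 receptor, and SLAMF1 (0.36). IL2RA had 105 CPM in dOGT-ISS and 169 in WT at 48 h, and 39.9 and 117 CPM at 24 h, and was lowest in dOGT-ISS at 24 h. It was picked for its likeness over these 4 libraries, so a shared low point follows from the choice. The TET2 pattern rests on 21 to 81 reads, and a link between the genes was not tested.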

How the data were processed

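Total RNA was depleted of ribosomal RNA and made into libraries with the CORALL kit, per the labels' protocols. Per the submitters' processing notes, the tools were HISAT2 2.2.0, SAMtools 1.15.1 and featureCounts 2.0.1, with build hg38. How strand and molecular identifiers were handled, and which annotation, is not given in the sources used here. The raw counts deposited by the authors are whole reads per Ensembl gene, without normalization. The FPKM deposited by the authors match each count over transcript length and library total within a relative deviation of 0.000675.

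Line and IL-2 time were tested together on counts with edgeR 4.0.16 in R 4.3.3 (quasi-likelihood F test, TMM factors, filterByExpr with a minimum count of 10), over 17492 genes with Benjamini-Hochberg adjustment and a threshold of 0.05. The 4 libraries leave 1 residual degree of freedom. Ratios between single libraries have exact conditional binomial 95% intervals, which cover counting error only. Reads are not independent molecules. DESeq2 1.42.0 and limma 3.58.1 on log2(FPKM + 1) and log2(FPKM + 0.1) were among the 12 alternatives per comparison. GC and length were available for 95.8% of the tested genes. Positions are from GENCODE on GRCh38. The script was tested on simulated data.

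The 8 genes, OGT and OGA were named. From each list, up to 4 genes past the test with the largest changes were named, or else the 2 largest with a mean of at least 1 CPM, and NEIL1 and SIN3A between the lines were added after their values were seen. The 2 nearest genes in pattern were named. A few genes within these rules are not reported. Members and lists were chosen with earlier results of these data known.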

Additional observations from a re-analysis of the deposited data

Results flagged for a closer look

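HCFC1 was singled out because its 2 line ratios pointed in opposite directions. The ratio of dOGT-ISS to WT was 0.920 (95% counting interval 0.865 to 0.978) at 48 h and 1.04 (1.02 to 1.07) at 24 h, each from 1 library per line. Whether the ratios differ was not tested, since the 1 residual degree of freedom of the model is the interaction itself.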

How the results depend on the processing

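Between the lines edgeR called 81 genes. The count was 546 without a filter on low counts, 280 with DESeq2, 31 with the neighbour median removed, 0 without the IL-2 time term (242 at an unadjusted p under 0.05), 0 with limma on either FPKM scale (1618 and 1543 unadjusted), and 0 to 16 when 1 library was left out as well as that term, since 3 libraries cannot carry both terms and a test. Without replicate 1 or 2 of a line means without its 48 h or 24 h library; a lone library is then assumed to vary like the others. Between the times 4535 genes were called, 3280 without the line term, and 1098 to 3657 when 1 library was left out too, the lowest without WT at 24 h (1098) and dOGT-ISS at 24 h (1306). HCFC1 changed sign between the lines without the time term (0.00972), on both limma scales (0.0144 and 0.0138) and with the neighbour median removed (0.14). With 1 library and the other term left out, so that the time difference enters the line difference and the reverse, the line differences ran from -0.11 to 0.52 for DNMT1, -3.16 to 1.05 for DNMT3A, 0.46 to 3.14 for DNMT3B, -0.83 to 0.22 for TET3, -0.69 to 0.12 for UHRF1 and -0.97 to 0.84 for HCFC1, and the time difference of TET2 from -2.01 to 0.17. UHRF1 between the times was -0.0126 with GC and length offsets. Apart from the dropped terms and libraries, the cause was not tested. DNMT3B kept its line call under 4 of 12 alternatives and its time call under 8 of 12, TET3 its time call under 5, UHRF1 under 5, DNMT3A under 11 and HCFC1 under 12. Without the line term alone DNMT3B, TET3 and UHRF1 lost their time calls. DNMT1 passed between the times without a low-count filter (0.64) and with DESeq2 (0.48). TET1 and the low 48 h counts of DNMT3A and TET2 limit what depth allows.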

Other observations

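Of 28 genes that are commonly silenced by promoter methylation in somatic cells, most of them germline genes, 10 had no count in any of the 4 libraries and 4 reached 1 CPM in at least 1 library. The other members had at most 11 counts in a library. The 4 were DDX4, TDRD1, SYCP3 and STAG3, and none passed the edgeR test between the lines or between the times. At an unadjusted p under 0.05 edgeR called 9.08% of all genes between the lines and 38.8% between the times. SYCP3, a protein of the meiotic chromosome axis, had 4.73 CPM in dOGT-ISS and 1.61 in WT at 48 h, and 1.21 and 1.46 CPM at 24 h. STAG3, a meiotic cohesin subunit, had 7.62 and 5.77 CPM at 48 h and 6.04 and 6.46 at 24 h. The line difference was 0.62 for SYCP3, 0.14 for STAG3, -0.97 for DDX4 and -1.30 for TDRD1.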
